A study of Mus musculus with 6 samples.

Results

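Wild-type hindlimb cells of C57BL/6 and of G4 mouse embryos at stage E11.5, in the middle of gestation, were compared gene by gene within each cell class. The C57BL/6 embryos came from the inbred strain, and the G4 embryos carried the background of the G4 embryonic stem cell line, a hybrid of 129 and C57BL/6. Both groups carried the normal order of the Lbx1 and Fgf8 region, which the study rearranged in its mutants. Cells were taken by the library and the class recorded for each of them. Cells with over 2000 detected genes were kept. This left 2249 C57BL/6 cells and 5606 G4 cells, 7855 of the 24891 cells kept in the whole series. The other hindlimb libraries were Dup, homozygous for a duplication on the C57BL/6 background, and Inv1, homozygous for an inversion on the G4 background, and G4 and Inv1 forelimbs were also profiled. Each of the 6 groups was 1 library, so no test between groups was possible. Intervals below are exact 95% intervals that cover the counting of UMIs or cells only.

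The embryo source sets the limits of the comparison. The study made its mice from stem cells by diploid or tetraploid aggregation with CD1 foster mothers, and after diploid aggregation cells of the host embryo can remain. It was not stated in the sources used here which form gave the wild-type G4 embryos, nor how many embryos were pooled. The library numbers in the sample titles fall into one range for C57BL/6 and Dup and another for G4 and Inv1, and the counts of each range were deposited as a matrix of their own. Strain, embryo origin, library set and the reference used for counting therefore cannot be told apart. The same holds for embryo sex: Xist, transcribed from the inactive X chromosome of female cells, stood at a CPM (UMIs of a gene scaled to one fixed total per class and library) of 336 in C57BL/6 and 324 in Dup mesenchyme, against 0 CPM in G4 and 0.136 CPM in Inv1. All gene counts below use autosomal genes with an identifier in both matrices (14015 of 14544 with a known position).

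A limb bud at this stage consists mostly of mesenchyme, which will form skeleton, tendon and connective tissue, under a thin ectoderm whose distal rim is the apical ectodermal ridge (AER). Muscle precursors enter from the somites, and blood vessels and immune cells make up the remainder. Mesenchyme is patterned from proximal cells that express Meis genes to distal cells that express Hoxa13 and Hoxd13. Imprinted genes such as H19 and Mest are transcribed from the copy of 1 parent, and the silent copy is kept silent by DNA methylation set in the germ line.

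Median depth per mesenchymal cell was 8251 UMIs in C57BL/6 and 8937 in G4, and 13852 and 16663 in muscle. Mesenchyme summed to 19111413 UMIs in C57BL/6 and 50534390 UMIs in G4. The libraries of the pair shared 4 cell barcodes. The class names held against their markers: Myod1, the muscle determination factor, had a UMI in 54.5% of C57BL/6 and 59.7% of G4 muscle cells against 2.12% and 0.539% of mesenchymal cells. Epcam, an epithelial adhesion protein, stood at 1037 and 1212 CPM in the summed ectoderm. Markers of mesenchyme were nevertheless higher in the other C57BL/6 classes, with a summed level of 467 CPM against 308 CPM in muscle, 1178 against 264 CPM in ectoderm, 254 against 56.4 CPM in endothelium and 813 against 114 CPM in immune cells.

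Mesenchyme made up 90% of C57BL/6 cells (2025, interval 88.7 to 91.2%) and 92.6% of G4 cells (5191, 91.9 to 93.3%). Muscle held 5.87% (132 cells) and 3.94% (221 cells), immune cells 1.29% (29 cells) and 0.339% (19 cells), and endothelium 1.11% (25 cells) and 0.803% (45 cells). The ectoderm classes together held 31 C57BL/6 cells (1.38%, 0.938 to 1.95%) and 126 G4 cells (2.25%, 1.88 to 2.67%), among them 16 and 33 AER cells. The muscle and immune shares were therefore lower and the ectoderm share higher in G4 beyond counting error, with a ratio of 0.672 for muscle (0.539 to 0.84). Dup, on the C57BL/6 background, had 1.12% immune cells, near C57BL/6, but 4.04% muscle cells and 2.5% ectoderm cells, both near G4.

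In mesenchyme most genes stood at nearly the same level in both wild types. Levels were CPM over the summed UMIs of a class. The 2 libraries averaged at least 20 CPM for 5689 genes, of which 71.8% differed by a ratio of at most 5 to 4 and 17 (0.299%) were 2-fold or more higher in G4. A further 47 genes (0.826%) were 2-fold or more lower. The median of all genes was -0.108 on the log2 scale, and values below are read against it. Between libraries of 1 background the counts were smaller: in Dup against C57BL/6, 6 genes (0.105%) were higher and 13 (0.228%) lower, and in Inv1 against G4, 5 (0.0898%) were higher and 1 (0.018%) lower. In Inv1 against Dup, which repeats the change of background in libraries outside the pair but adds the genotype, 20 genes (0.356%) were higher and 21 (0.374%) lower.

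**Figure D1:**
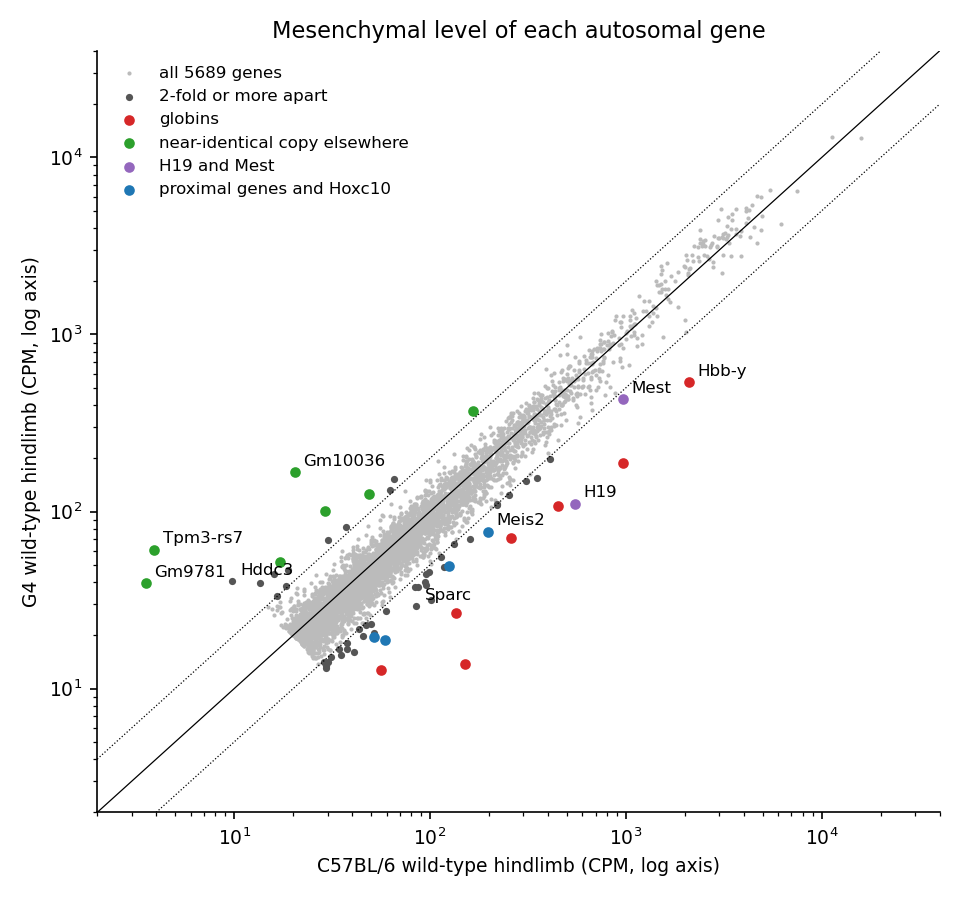
Level of each of 5689 autosomal genes in C57BL/6 (horizontal) and G4 (vertical) wild-type hindlimb mesenchyme, both in CPM on log axes; the solid line marks equal levels and the dotted lines 2-fold. The 17 genes above the upper dotted line are led by Tpm3-rs7 (3.92 against 60.9 CPM), and the 47 below the lower one include 7 globins, H19, Mest and proximal genes.

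Many of the genes that stood highest in G4 were copies of another gene. Such copies often arise by reverse transcription of a spliced transcript that is then inserted elsewhere in the genome. Of the 16 higher genes with an annotated transcript, 7 (43.8%) had a near-identical copy under another gene symbol, against 206 of 5653 measured genes (3.64%) and 1 of 39 lower genes other than globins (2.56%). Near-identical meant at least 90% identity over at least 200 bases and 80% of the shorter transcript. The pairs with stretches printed here show how few bases separate such copies. Each stretch is 60 coding bases on the gene's strand, capitals mark the bases that differ within a pair, and positions are on NCBIM37 (mm9). Tpm3-rs7 lies at chr14:113713937-113713996 on the plus strand and Tpm3, a cytoskeletal tropomyosin, at chr3:89883693-89883752 on the plus strand. Gm10073 lies at chr8:109096993-109097052 on the minus strand and Rplp1, a protein of the ribosomal stalk, at chr9:61761218-61761277 on the minus strand.
Tpm3-rs7: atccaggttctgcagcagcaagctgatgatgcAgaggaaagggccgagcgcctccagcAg
Tpm3: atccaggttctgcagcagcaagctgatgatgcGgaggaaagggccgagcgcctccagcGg
Gm10073: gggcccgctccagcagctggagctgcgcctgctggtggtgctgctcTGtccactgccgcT
Rplp1: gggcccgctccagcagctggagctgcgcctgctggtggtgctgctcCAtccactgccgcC

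Tpm3-rs7, the tropomyosin copy shown above, stood at 3.92 CPM in C57BL/6, 3.30 in Dup, 60.9 in G4 and 55.0 in Inv1 mesenchyme. The G4 level was 15.5-fold that of C57BL/6 (12.3 to 19.8), and the G4-background libraries lay far above both others. A UMI was found in 3.51% of C57BL/6 and 43.1% of G4 mesenchymal cells, and in 2.27% and 51.6% of muscle cells. Its parent Tpm3 went the other way, at 335 CPM in C57BL/6 and 225 CPM in G4. Summed with its parent, to which it is 99.1% identical over 2108 bases, the level was 339 CPM in C57BL/6 and 286 CPM in G4, lower in G4 by a ratio of 0.843. UMIs of the pair may have been split between the copies by the authors' counting, so neither level is certain alone.

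Gm9781, a copy of Eif3j (a translation initiation factor subunit), had the same form. It stood at 3.56 CPM in C57BL/6, 3.49 in Dup, 39.4 in G4 and 40.5 in Inv1. Eif3j itself stood at 219.7 CPM in C57BL/6 and 109 CPM in G4, and the sum of both at 223 and 148 CPM. For these 2 genes the direction of the difference thus turned when the copies were summed.

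Summed with their parents, copies of ribosomal protein genes were also higher in G4, by much less. Gm10036, a copy of Rpl11, stood at 20.4 CPM in C57BL/6, 26.1 in Dup, 167 in G4 and 168 in Inv1, and the ratio fell from 8.18 alone to 1.13 with Rpl11. For Gm10073 and Rplp1 the ratio went from 3.47 to 1.40, for Gm9846 and Rps27 from 2.57 to 1.49, and for Rpl10-ps3 and the X-linked Rpl10 from 3.01 to 1.31. The parents had ratios of 1.09 (Rpl11), 1.38 (Rplp1), 1.46 (Rps27) and 1.29 (Rpl10) on their own. They supply nearly all of each sum, as with 3641 CPM of Rpl11 in C57BL/6. The summed ratios therefore follow the parents and do not show whether the copies differ.

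**Figure D2:**
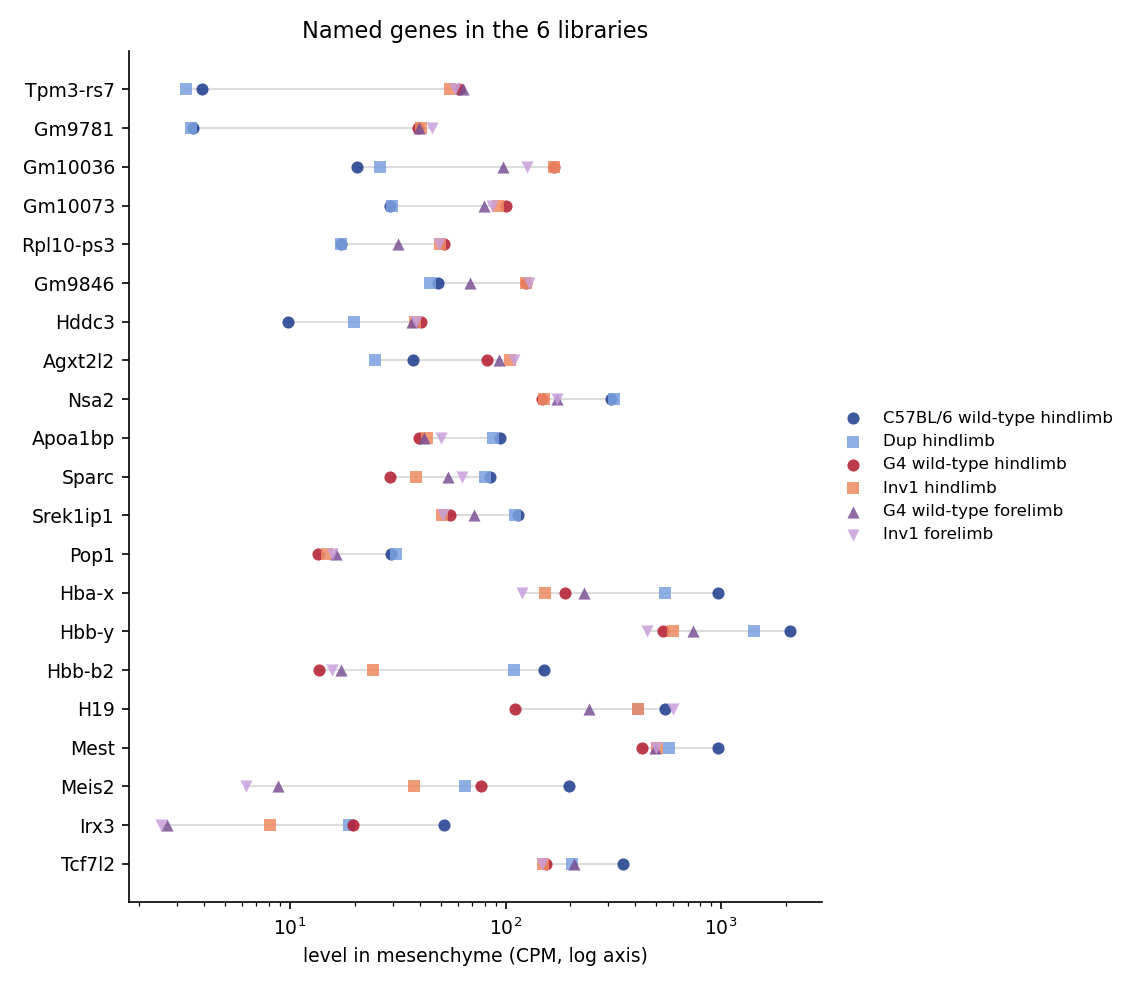
Level of 21 named genes in mesenchyme in each of the 6 libraries, in CPM on a log axis, with blue for the C57BL/6 background, red and orange for G4-background hindlimbs and purple for G4-background forelimbs. Both blue points lie below all 4 others for Tpm3-rs7 and Gm9781 and above them for Nsa2 and Hbb-y, while Dup lies near G4 for Meis2, Irx3 and Mest.

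Higher genes without a copy covered several functions. Hddc3, a nucleotide pyrophosphohydrolase, stood at 9.78 CPM in C57BL/6, 19.9 in Dup, 40.5 in G4 and 38.0 in Inv1. Nme2, a nucleoside diphosphate kinase, stood at 15.9, 17.8, 44.6 and 36.2 CPM in the same order, and Hist1h1b, a linker histone, at 65.6, 64.9, 153 and 217 CPM. The remaining named genes were Agxt2l2 (37.3 CPM in C57BL/6 and 82.1 in G4), Pttg1, the securin that holds back the separation of sister chromatids (62.7 and 133 CPM), and a, the agouti gene of coat colour (30.3 and 69.3 CPM). Fosb, an immediate early gene, was an exception to the split by background: 13.6 CPM in C57BL/6 against 39.4 in G4, but 39.1 in Dup and 26.3 in Inv1.

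Of the 17 higher genes, 11 were also 2-fold or more higher in Inv1 against Dup, among them the 7 with symbols of retrocopies or pseudogenes. Of the 40 lower genes other than globins, 9 were also 2-fold or more lower there and all 40 lay on the same side of equality. The 9 were Meis1, Sparc, Irx3, Hoxc10, Apoa1bp, Pop1, Cyr61, Nsa2 and Srek1ip1. The counts past 2-fold stand beside 0.356% and 0.374% of all genes in Inv1 against Dup.

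Lower genes of one kind were low in both G4-background hindlimbs and, Sparc aside, nearly level within each background. Nsa2, a factor of ribosome biogenesis, stood at 310 CPM in C57BL/6, 319.5 in Dup, 148 in G4 and 150.3 in Inv1 (C57BL/6 2.09-fold above G4, 2.02 to 2.17). Apoa1bp, an epimerase that repairs damaged NAD(P)H, stood at 94.2, 87.6, 39.9 and 43.2 CPM, and Sparc, a matrix glycoprotein, at 84.9, 80.4, 29.2 and 38.5 CPM. Srek1ip1, which binds a splicing regulator, stood at 114 CPM in C57BL/6 and 55.3 CPM in G4, and Pop1, a subunit of RNase P, at 29.6 and 13.5 CPM. Rpl29, a ribosomal protein with many near-identical copies, ran just short of 2-fold, at 2023 CPM in C57BL/6, 2378 in Dup, 1039 in G4 and 968 in Inv1.

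Globins, the chains of haemoglobin, are products of red blood cells, and UMIs of them in other cells are a common measure of free RNA. All 7 measured globins were 3.68-fold or more higher in C57BL/6 mesenchyme, with a summed level of 4111 CPM against 958 CPM in G4 (2698 in Dup and 1058 in Inv1). Hbb-y, an embryonic beta-like globin, stood at 2088 CPM in C57BL/6, 1414 in Dup, 537 in G4 and 601 in Inv1 and had a UMI in 100% and 98.9% of C57BL/6 and G4 mesenchymal cells. Hbb-b2, an adult beta globin, stood at 151 and 13.7 CPM, 11-fold apart against 3.68-fold to 5.12-fold for the other 6. All 7 were also 2-fold or more lower in every other class, with a ratio of the sums of 0.241 in muscle, 0.202 in ectoderm, 0.234 in endothelium and 0.159 in immune cells, beside 0.233 in mesenchyme. Their part in other differences was not tested.

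Genes of the proximal limb were lower and genes of the distal limb higher in G4 mesenchyme. Of 10 proximal genes measured (10 or more CPM), 3 were 2-fold lower and all 10 lay below 0, with a median log2 ratio of -0.75. Of all 7612 genes at that level, 0.88% were 2-fold lower and 64.7% lay below 0. The counts of gene lists in mesenchyme below stand beside these shares and beside 35.3% above 0. Meis2, a proximal homeodomain factor, stood at 198 CPM in C57BL/6, 64.7 in Dup, 77 in G4 and 37.8 in Inv1. Meis1 stood at 59.1 CPM in C57BL/6 and 18.9 CPM in G4, and Irx3 at 51.8 and 19.7 CPM. Dup was close to G4 for all 3, so the level in the C57BL/6 wild type stood apart from the other 3 hindlimbs. Of 10 distal genes none was past 2-fold and 9 lay above 0, with a median of 0.50, led by Hoxd13, a factor of the future foot (74.6 CPM in C57BL/6, 143 in Dup, 130.0 in G4, 182 in Inv1).

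The libraries also differed in how many cells came from each end of the limb. Cells with a UMI of Hoxa13 or Hoxd13 and none of Meis1 or Meis2 made up 24.2% of C57BL/6 mesenchyme (22.4 to 26.2%), 42.7% of G4 (41.3 to 44.0%), 49.0% of Dup and 59.8% of Inv1. Cells with the opposite pattern made up 38.2% of C57BL/6, 20.2% of G4, 14.7% of Dup and 9.55% of Inv1. Within distal cells so defined the distal genes had a median of 0.11, and within proximal cells the proximal genes one of -0.22, near that of all genes. Meis2 in proximal cells stood at 464 CPM in C57BL/6 and 380.5 CPM in G4. These genes also set the gates, so the gated levels of Meis and Hox13 genes are a description of the gates. Which level of the limb each dissection included was not stated, and its part in these differences was not tested.

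Hoxc10, a hindlimb Hox gene, stayed lower within both gates. It stood at 125 CPM in C57BL/6, 73.9 in Dup, 49.4 in G4 and 33.9 in Inv1 mesenchyme. Within distal cells it stood at 55.3 CPM in C57BL/6 and 18.4 CPM in G4, and within proximal cells at 192 and 108 CPM. The 5 measured HoxC genes had a median of -0.87 in all mesenchyme, -1.16 in distal and -0.26 in proximal cells. Genes of the HoxA cluster had a median of -0.13 (6 genes) and of HoxD 0.27 (5 genes). Pitx1, which specifies hindlimb identity, stood at 333 CPM in C57BL/6, 308 in Dup, 216 in G4 and 224 in Inv1, and Tbx4, another hindlimb factor, at 54.3, 37.6, 62.2 and 52.4 CPM.

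Genes of differentiating mesenchyme were lower in G4. All 10 measured chondrogenic genes lay below 0 (median -0.62, and -0.31 within proximal cells), none past 2-fold. Sox9, the master factor of cartilage, stood at 323 CPM in C57BL/6, 182 in Dup, 164 in G4 and 148 in Inv1, and in proximal cells at 412 and 247 CPM in the pair. Genes of tendon and connective tissue had a median of -0.39 with 1 of 10 past 2-fold, Tcf7l2, a Wnt effector of muscle connective tissue (350.1 CPM in C57BL/6, 203 in Dup, 154 in G4, 149 in Inv1). Other lower genes of the matrix and of secreted signals were Sfrp1, a Wnt inhibitor (101 and 31.8 CPM), Cxcl12, a chemokine (95.4 and 38.6 CPM), Fibin (118 and 48.7 CPM) and Vcan, the matrix proteoglycan versican (409 and 197 CPM). Dup lay nearer to G4 than to C57BL/6 for these 4 genes, at 39.7, 43.6, 50.8 and 243 CPM.

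BMP target genes and genes of the Shh pathway and posterior limb stood higher in G4. Other signalling lists did not share one direction. Of 8 BMP target genes 7 lay above 0 with a median of 0.60, none past 2-fold. Id1, a BMP-induced inhibitor of basic helix-loop-helix factors, stood at 392 CPM in C57BL/6, 589 in Dup, 636 in G4 and 598 in Inv1, and Msx1, a distal BMP target, at 95.8, 131, 150.3 and 112 CPM. In Inv1 against Dup the 8 BMP target genes had a median of -0.18. Within distal cells Msx1 stood at 186 CPM in C57BL/6 and 206 CPM in G4, and within proximal cells at 45.2 and 59.4 CPM. Of 8 genes of the Shh pathway and posterior limb 7 lay above 0 (median 0.38, and 0.44 in Inv1 against Dup). Hand2, a posterior factor, stood at 118 CPM in C57BL/6, 134 in Dup, 165 in G4 and 205 in Inv1. Feedback targets of FGF had a median of -0.10 over 9 genes, near that of all genes, and genes of the retinoic acid pathway one of -0.31 over 9 genes. Wnt targets had a median of 0.29 over 5 genes, while their summed level had a ratio of 1.01.

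Genes of the translation machinery were higher by a small amount that ran through most of the list. Of 77 ribosomal protein genes measured in mesenchyme, 70 lay above 0, with a median of 0.27. Their summed level was 199869 CPM in C57BL/6, 212053 in Dup, 234892 in G4 and 228167 in Inv1. The 7 below 0 included Rpl29 and Rps2 (3884 and 2775 CPM). Of 71 genes of oxidative phosphorylation 51 lay above 0 (median 0.12). Immediate early genes, which can respond to dissociation, had a median of -0.44, and Fos stood at 56.0 CPM in C57BL/6, 179 in Dup, 34.7 in G4 and 44.2 in Inv1.

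**Figure D3:**
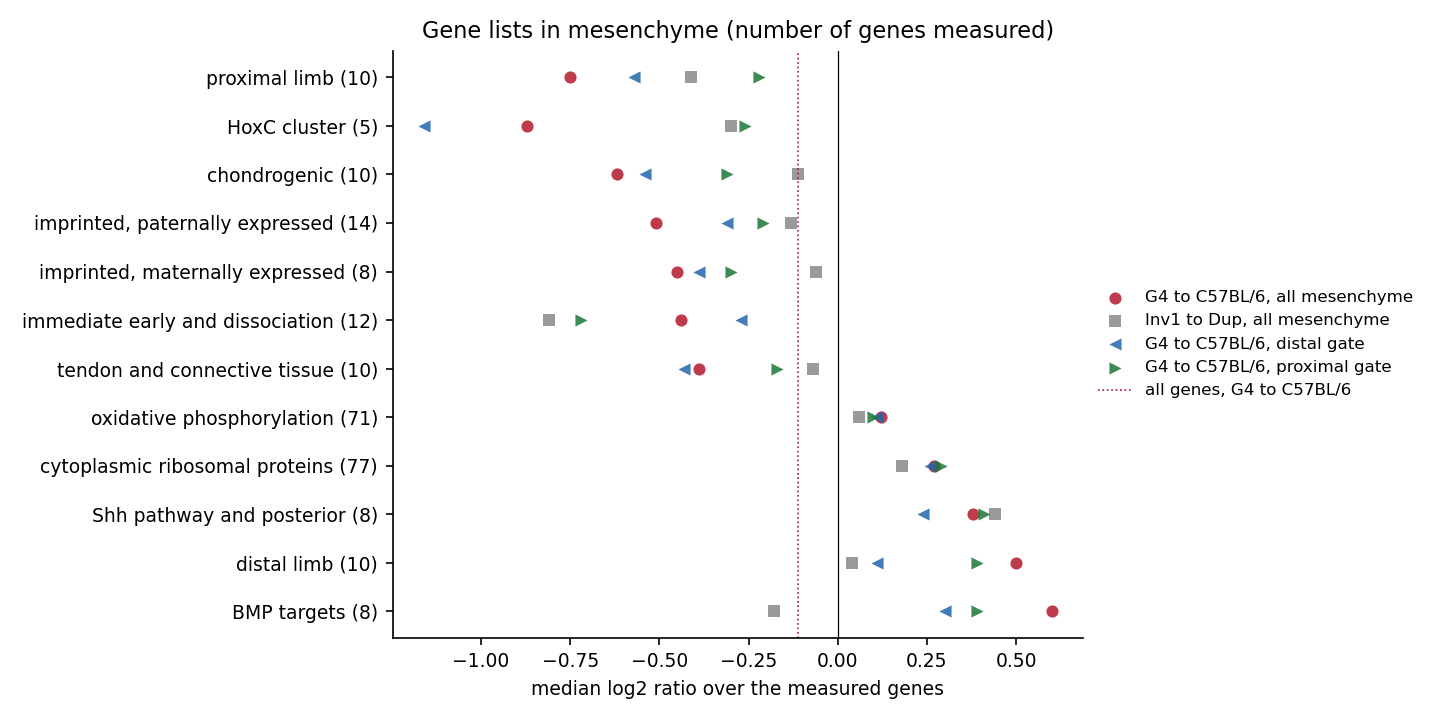
Median log2 ratio of 12 gene lists in mesenchyme, for G4 against C57BL/6 in all cells (red), in distal (blue) and in proximal cells (green), and for Inv1 against Dup (grey); the number of genes measured in all mesenchyme is in brackets, gated medians are over the genes measured in that gate, and the dotted line is the median of all genes (-0.11). Proximal genes move from -0.75 in all cells to -0.22 in proximal cells, distal genes from 0.50 to 0.11 in distal cells, and ribosomal protein genes lie between 0.18 and 0.29 in all 4.

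Imprinted genes were lower on the whole in mesenchyme, and 3 were past 2-fold. All 8 measured genes expressed from the maternal copy lay below 0 (median -0.45), and 11 of 14 expressed from the paternal copy (median -0.51), beside 64.7% of all genes. In Inv1 against Dup the medians were -0.06 and -0.13. In muscle the medians for the pair were 0.10 and 0.08. There 6 of 9 maternal and 7 of 14 paternal genes lay above 0, beside 38.3% of all genes. H19, a maternally expressed long non-coding RNA at chr7:149761434-149764048 (NCBIM37), stood at 552 CPM in C57BL/6, 412 in Dup, 111 in G4 and 411 in Inv1. Mest, a paternally expressed hydrolase-like protein of mesoderm at chr6:30673547-30698457, stood at 964, 574, 430.3 and 503 CPM. Usp29, paternally expressed, stood at 87.3, 45.9, 37.5 and 32 CPM. Thus H19 was low in the G4 hindlimb alone among hindlimbs, 4.96-fold below C57BL/6 (4.8 to 5.12), and stood at 245 CPM in the G4 forelimb against 599.7 CPM in the Inv1 forelimb.

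The distribution of H19 over cells was looked at after its values were seen. In mesenchyme an H19 UMI was found in 91.3% of C57BL/6, 75.2% of Dup and 74.6% of Inv1 cells, but in 25.3% of G4 hindlimb and 32.6% of G4 forelimb cells. The G4 cells that had H19 held 4.28 UMIs of it on average, against 5.71 in C57BL/6, 3.98 in Dup and 5.28 in Inv1. Among the 560 genes whose G4 level differed from that of H19 by a ratio of at most 5 to 4, H19 was found in the smallest share of cells (next was Meox2 at 33.7%, and the median gene was found in 60.7%). In G4, therefore, fewer cells had H19, at a level per positive cell within the range of the other libraries.

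In the G4 libraries, cells with H19 and cells with Mest were largely different cells. Of G4 hindlimb mesenchymal cells with H19, 24.2% had a Mest UMI (21.9 to 26.6%), against 84.9% of cells without H19 (83.7 to 86.0%). In C57BL/6 the shares were 97.7% and 93.8%, in Dup 88.3% and 82.2%, and in Inv1 88.1% and 84.4%. Of 5191 G4 cells, 997 had H19 alone, 3289 Mest alone, 318 both and 587 neither. With every cell thinned to 4000 UMIs, the shares in G4 were 13.2% and 68.1%, so the pattern was also there at equal depth.

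The split was also seen in muscle and ectoderm of the G4 hindlimb and in the G4 forelimb. In endothelium and immune cells, too few cells had H19 to show whether it was there. In G4 hindlimb muscle, Mest was found in 29.7% of cells with H19 (20.5 to 40.2%) and 96.9% of cells without it (92.3 to 99.2%). In G4 ectoderm the shares were 2.94% of 34 cells and 58.7% of the others. In the few endothelial cells they were 85.7% of 14 and 96.8% of the others, and in immune cells 33.3% of 3 and 18.8% of 16. In G4 forelimb endothelium the shares were 62.5% of 8 cells and 100% of the others. G4 forelimb mesenchyme had 41.4% and 89.7% and muscle 53.3% and 98.5%. In the Inv1 forelimb, on the same background, mesenchyme had 90.1% and 91.6%.

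**Figure D4:**
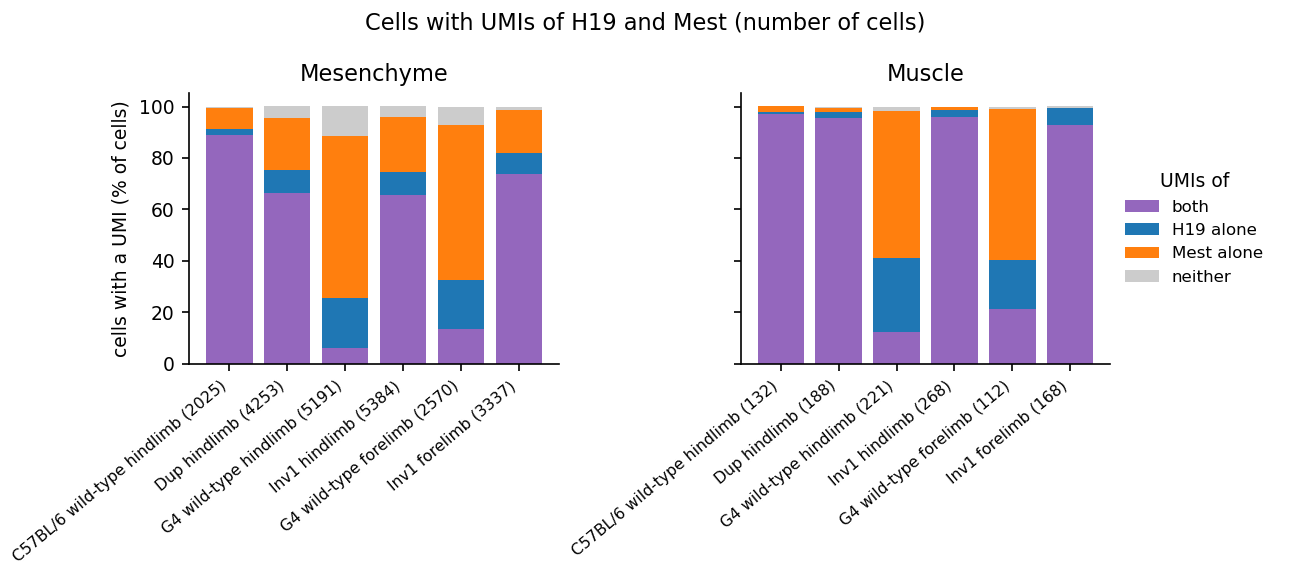
Share of cells (percent) with UMIs of both H19 and Mest, of H19 alone, of Mest alone or of neither, in mesenchyme (left) and muscle (right) of each of the 6 libraries, with the number of cells in brackets. Cells with both make up 89.1% of C57BL/6 and 6.13% of G4 hindlimb mesenchyme, and the G4 forelimb (13.5%) resembles the G4 hindlimb.

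Beside H19 and Mest, hardly any gene differed by 2-fold or more between the 2 kinds of G4 cells. Between H19-only and Mest-only cells of G4 hindlimb mesenchyme, of 5488 genes none was 2-fold higher in H19-only cells, H19 and Mest aside, and 1 was 2-fold lower, Tcfap2b (12.1 against 30 CPM), a distal limb transcription factor. Igf2, the paternally expressed growth factor beside H19, stood at 34.4 CPM in H19-only and 58.5 CPM in Mest-only cells, a ratio of 0.587 (0.520 to 0.662), and in the G4 forelimb at 47.0 and 107 CPM. Other differences short of 2-fold in the G4 hindlimb included Plagl1, an imprinted gene, at a ratio of 1.76 (1.51 to 2.04). Hoxd13 had a ratio of 0.641, Hoxa13 0.719 and Meis2 1.31. In the G4 forelimb Plagl1, Hoxd13 and Hoxa13 had ratios of 0.876, 0.996 and 1.16. The genes that separated the backgrounds did not separate these cells: ratios were 0.953 for Tpm3-rs7, 0.960 for Gm9781, 0.992 for Gm10036, 1.03 for Nsa2 and 1.08 for Hbb-y. In Dup, where the split is not seen, 28 genes were 2-fold higher and 19 lower between its smaller H19-only and Mest-only sets (373 and 866 cells), the lower including the distal genes Lhx2 and Hey1.

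In muscle, the genes of the contractile apparatus were higher in G4. Of 4981 genes measured, 36 (0.723%) were 2-fold or more higher and 60 (1.2%) lower in G4, and 42 and 31 when levels were scaled by the median of ratios instead of the total. Of 15 sarcomere genes 9 were past 2-fold and 14 lay above 0, with a median of 1.08 and a summed level of 1753 CPM in C57BL/6, 3278 in Dup, 3293 in G4 and 6638 in Inv1. Acta1, skeletal muscle actin, stood at 7.6 CPM in C57BL/6, 52.7 in Dup, 95 in G4 and 182 in Inv1. Mylpf, a fast muscle myosin light chain, stood at 217, 381, 564 and 1087 CPM, and Tnnc1, slow troponin C, at 48.5, 119, 186 and 358 CPM. For each of these, C57BL/6 was lowest, Inv1 highest, and Dup between C57BL/6 and G4.

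Few cells carried these transcripts. Acta1 had a UMI in 4 of 132 C57BL/6 muscle cells (3.03%, 0.832 to 7.58%) and 10 of 221 G4 cells (4.52%, 2.19 to 8.16%), with 16 and 366 UMIs, against 0.148% and 0.193% of mesenchymal cells. Mylpf had a UMI in 30.3% and 41.6% of muscle cells (15.2% and 21.5% after thinning to 4000 UMIs), against 6.72% and 7.36% in mesenchyme. The intervals of the Acta1 shares overlapped, and since its UMIs came from so few cells, the interval of its level does not cover the spread between cells. Levels of muscle cells here sum differentiating and precursor cells, and more differentiating cells and more RNA in each cannot be told apart.

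The regulators of the muscle lineage did not stand apart. Of 12 measured, none was past 2-fold and the median was -0.13, beside -0.10 for all genes. Pax3, which marks precursors, stood at 144 CPM in C57BL/6, 81.2 in Dup, 110.0 in G4 and 69.0 in Inv1, and Myod1 at 208, 343, 263 and 349 CPM. Myog, which drives differentiation, stood at 215, 297, 331 and 467 CPM and was found in 25.8% of C57BL/6 and 29.9% of G4 cells. Pitx1, chosen after its values were seen, stood at 36.1 CPM in C57BL/6 muscle and 5.45 CPM in G4 muscle, and 2 of 9 mesenchyme markers were 2-fold lower there.

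Other muscle genes repeated what was seen in mesenchyme. The copies Gm10036 (22.3 CPM in C57BL/6 and 187 in G4), Gm10073 (52.7 and 162 CPM) and Gm9846 (52.3 and 138 CPM) were higher in G4 muscle. Rpl29 stood at 2376 CPM in C57BL/6, 2727 in Dup, 1119 in G4 and 1083 in Inv1 muscle, now past 2-fold (2.12, 2.04 to 2.21). H19 stood at 468, 658, 203 and 601 CPM, so that in muscle also it was low in G4 and not in Inv1. Ebf1, a factor of mesenchymal and connective tissue cells, stood at 101, 75.4, 41.5 and 42.3 CPM, and Nsa2 at 324 CPM in C57BL/6 and 139.9 CPM in G4.

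**Figure D5:**
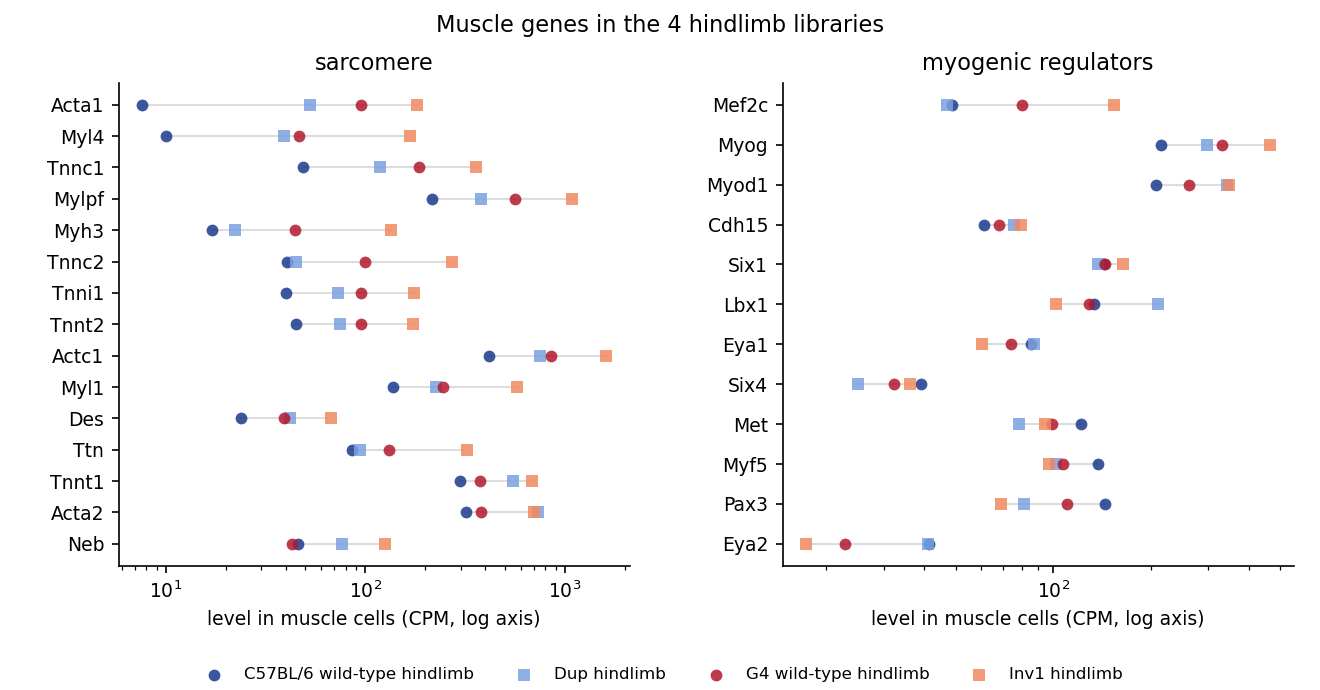
Level of 15 sarcomere genes (left) and 12 myogenic regulators (right) in muscle cells of the 4 hindlimb libraries, in CPM on log axes. C57BL/6 lies at the low end for 14 sarcomere genes and Inv1 at or near the high end, while the regulators show no common order.

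In the summed ectoderm, of 1447 genes that averaged at least 100 CPM, 26 (1.8%) were 2-fold or more higher in G4 and 48 (3.32%) lower, and 38 and 30 under median scaling. Keratins were higher, with Krt14 at 126 CPM in C57BL/6, 1416 in Dup, 703 in G4 and 947 in Inv1, and Krt8 at 52.1 and 220.2 CPM. The summed classes were mixed in different shares. Cells of the keratinocyte class were 4 of 31 in C57BL/6, 29 of 116 in Dup, 29 of 126 in G4 and 39 of 216 in Inv1. The part of this mix in the keratin levels was not tested. Mesenchymal genes were lower, with Prrx1 at 146 CPM in C57BL/6, 29.1 in Dup, 5.79 in G4 and 11.4 in Inv1, Col3a1 at 142 and 7.24 CPM, Lix1 at 118 and 2.90 CPM, Ebf1 at 254 and 2.17 CPM, and Hoxd11 at 118 and 4.35 CPM. Of 19 ectoderm markers 10 were past 2-fold higher, and of 13 mesenchyme markers 12 past 2-fold lower. Of all 7607 genes at 10 or more CPM in ectoderm, 4.36% were 2-fold higher and 8.89% lower.

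These values rest on 31 C57BL/6 cells of mixed content. A UMI of 8 or more of 16 mesenchyme markers was found in 9 of the 31 C57BL/6 ectoderm cells and in 0 of 126 G4 cells, which allows a G4 share of up to 2.38% when 3 cells are taken as the limit. Without such cells the median of the ectoderm markers went from 1.03 to 0.37 and the genes higher in G4 from 26 to 14, while 52 were lower against 48. Arl4c stood at 40.1 and 162 CPM, and the copy Gm10036 at 16 and 172 CPM, as in the other classes. Fgf8, the AER growth factor, stood at 2169 CPM in C57BL/6 and 1463 CPM in G4 ectoderm, where AER cells were 16 of 31 and 33 of 126. Within AER cells alone it was higher in G4, at 5453 CPM in C57BL/6 and 7315 CPM in G4 (ratio 1.34, 1.24 to 1.45). Fgf8 stood at 3371 CPM in Dup and 37.6 CPM in Inv1 AER cells, so libraries of the same background also differed. Among AER cells, 5 of 16 in C57BL/6 and 0 of 33 in G4 had 8 or more mesenchyme markers. Their part in the Fgf8 level was not tested. Fgf8 was itself a marker used to name the AER class.

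Smaller classes gave larger shares of genes past 2-fold, with far fewer UMIs behind each. In the AER 49 genes (3.42%) were higher and 70 (4.89%) lower, in dorso-ventral ectoderm 13 (0.882%) and 70 (4.75%), in endothelium 6 (0.388%) and 35 (2.26%), and in immune cells 56 (3.81%) and 76 (5.17%). Endothelial marker genes were level, with a summed 6102 CPM in C57BL/6 and 5855 CPM in G4 and none of 14 past 2-fold.

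Some differences were present in mesenchyme, muscle and ectoderm alike. Of 4546 genes that averaged at least 20 CPM in each of the 3, a lower minimum for ectoderm than above, 25 were past 2-fold the same way in all 3, of which 9 were higher and 16 lower in G4. The higher genes were Gm10036, Gm10073, Gm9781, Gm9846, Rpl10-ps3, Rpl36a-ps1, Tpm3-rs7, Nme2 and Hist1h1b. The lower genes were 6 globins, H19, Mest, Usp29, Nsa2, Apoa1bp, Srek1ip1, Pop1, Sparc, Sfrp2 and Tcf7l2. At the minimum of 100 CPM in ectoderm 10 of the 25 were left, 1 higher and 9 lower. Sfrp2, Tcf7l2 and Mest were 15.2-fold, 4.66-fold and 4.16-fold lower in ectoderm against 2.05-fold, 2.28-fold and 2.24-fold in mesenchyme, beside the mesenchyme markers in C57BL/6 ectoderm given above. Without cells that carried those markers, their log2 ratios in ectoderm were -3.12, -1.49 and -1.47, and Hist1h1b, Apoa1bp and Usp29 came inside 2-fold. When endothelium and immune cells were added, 12 genes were past 2-fold in all 5, with Tpm3-rs7, Gm10036, Gm10073 and Nme2 higher and H19, Tcf7l2 and 6 globins lower. The interval for Nme2 included equal levels in endothelium (0.997 to 5.27, from 8 and 44 UMIs) and in immune cells (0.757 to 6.58, from 8 and 9 UMIs). Classes of 1 library share that library and are not replicates, so a gene found in all of them is 1 observation of the pair.

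Genes past 2-fold in mesenchyme lay on all 19 autosomes. Chromosome 11 held 10 of the 64 and chromosome 7 held 8, of which 3 and 4 were globins. Without globins, 57 genes remained, with 1 to 7 on each chromosome. Over the 19 autosomes, with 161 to 487 measured genes each, the median log2 ratio in mesenchyme ran from -0.153 to -0.044, beside -0.108 for all genes. Btrc and Dpcd, near Fgf8 in the chromosome 19 region that the mutants rearrange, were near equal in wild-type mesenchyme. In mesenchyme, Btrc, a ubiquitin ligase subunit, stood at 23.4 CPM in C57BL/6 and 23.2 CPM in G4, and Dpcd at 55.5 and 55.2 CPM, against 46.5 and 123 CPM in Dup.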

How the data were processed

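Single cells of hindlimbs and forelimbs at stage E11.5 were dissociated with trypsin and profiled by droplet 3′ RNA sequencing, with 1 library per group. The authors deposited UMI counts per gene and cell, not normalized, in 1 matrix for the C57BL/6 and Dup hindlimbs and another for the G4 and Inv1 limbs. A further matrix of the G4 and Inv1 hindlimbs alone was not used, since the list that should name its genes held barcodes. Its cell classes served as a second annotation. The submitters' processing notes name Cell Ranger 3 and the builds mm9 and mm10, and the methods name a custom mm9 reference. Whether both matrices were counted with the same annotation was not given in the sources used here. The authors filtered cells on detected genes, mitochondrial UMIs and predicted doublets before naming classes, so no doublet caller was run here. Of the deposited columns of values per cell, 17 were not used.

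Cells with over 2000 detected genes were kept and their UMI counts summed per library and class. Positions and symbols came from the GENCODE M1 annotation on NCBIM37, for 14544 genes in both matrices, and 1124 others had none. Levels were CPM. A gene was measured with a mean of 20 or more CPM (100 in classes under 100 cells, 10 for gene lists), and log2 ratios were taken after adding 0.5 counts. Ratios carry exact conditional binomial 95% intervals and shares Clopper-Pearson intervals. With 1 library a group no test was run, and 2-fold was used as a mark of size. A gene was said to differ in every class from mesenchyme, muscle and summed ectoderm, each with 30 or more cells, at a minimum of 20 CPM in each. Named genes were the 15 highest and 15 lowest in mesenchyme, 6 each in muscle and 5 each in ectoderm, ranked with a pseudocount of 10 CPM among genes with a mean of at least 20 CPM (50 outside mesenchyme), without globins, plus genes that differed in every class and members of fixed gene lists. A few genes that this rule names are not reported here. The comparison, its members and its lists were chosen with earlier results of these data known. To compare shares of cells at equal depth, 4000 UMIs were drawn from each cell and shallower cells were left out. Near-identical copies were found with BLAST+ 2.17.0. Alternatives covered the detected-gene limit, scaling, minimum level, fold, gates, cells with markers of another class and sums of copies. Scripts were tested on simulated data and used Python 3.11.15, numpy 2.4.6, pandas 2.3.3, scipy 1.17.1 and matplotlib 3.10.9.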

Additional observations from a re-analysis of the deposited data

Results flagged for a closer look

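Genes without a position in the annotation were left out of the comparisons above. In mesenchyme 70 such genes averaged at least 20 CPM, of which 8 were 2-fold or more higher in G4 and 1 was lower, which is 12.9% past 2-fold, beside 0.299% higher and 0.826% lower among placed autosomal genes. They carry no symbol here and are not named.

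Mef2c, a transcription factor of muscle and of vessels, was the 1 gene of 4767 measured in both mesenchyme and muscle that moved in opposite directions by 1.5-fold or more, and 0 did so by 2-fold. Its log2 ratio was 0.71 in muscle, where it stood at 48.9 CPM in C57BL/6, 46.9 in Dup, 80.2 in G4 and 154 in Inv1. In mesenchyme the log2 ratio was -1.02, at 34.2 CPM in C57BL/6, 18.3 in Dup, 16.8 in G4 and 13.9 in Inv1. It was chosen after its values were seen, and the difference between the classes was not tested.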

How the results depend on the processing

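No paired analysis was possible because each group is 1 library, and no replicate could be left out. Of 247 values recomputed, 173 stayed within their interval or 1.5 times and 74 moved. Of the larger gene list medians, 0 changed sign. Values nearer to 0 were not checked for sign, and the highest chromosome median went from -0.044 to 0.065 under median-of-ratios scaling. Sums of copies are given apart from these. Depth limits the small classes most, where the immune, endothelial and ectoderm sums rest on 25 to 31 C57BL/6 cells, and only the counting error of 1 library is known for any value. Except where stated, the cause of a change was not tested.

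With over 3000 detected genes the ribosomal protein median in mesenchyme was 0.20, the sarcomere median 1.42, the ratio of AER shares 0.293 (0.827 before), and the shares of G4 mesenchymal cells with Mest 29.4% among cells with H19 and 86.2% among the others. Under median-of-ratios scaling, genes lower in G4 numbered 31 in muscle and 30 in ectoderm, 3 lower muscle genes recurred in Inv1 against Dup and 10 were lower in every class. Chromosome medians then ran from -0.045 to 0.065, ribosomal protein medians were 0.38 in mesenchyme, 0.33 in muscle and 0.51 in ectoderm, that of oxidative phosphorylation was 0.23 and that of mesenchyme markers in muscle -0.41. A minimum of 5 CPM gave 59 higher and 88 lower genes in mesenchyme, 137 and 229 in muscle and 527 and 1047 in ectoderm, since it admits low genes. A minimum of 100 CPM gave 2 and 14 in mesenchyme and 6 and 11 in muscle. A fold of 1.5 gave 68 and 322 in mesenchyme, 123 and 443 in muscle and 81 and 175 in ectoderm, with 39 and 121 (mesenchyme) and 68 and 132 (muscle) recurring in Inv1 against Dup and 20 and 123 in every class. A fold of 3 gave 6 and 10, 9 and 10, and 8 and 14, with 4 and 0 and 7 and 0 recurring and 3 and 6 in every class.

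Within distal cells 26 genes were lower and the distal median was 0.11. Within proximal cells 30 were lower, and the medians were -0.22 for proximal, -0.31 for chondrogenic and -0.72 for immediate early genes. The following were added after the data were seen. Without cells with 8 or more mesenchyme markers, ectoderm had 14 higher genes, an ectoderm marker median of 0.37 and a globin median of -1.75, and mesenchyme markers in muscle a median of -0.41. Over 5 groups of cells 4 genes were higher and 8 lower in all, and with at least 100 CPM in ectoderm 1 was higher and 9 were lower in every class. Summed with its copy, the log2 ratio reversed to -0.59 for Gm9781 and -0.25 for Tpm3-rs7, because the parent is far more abundant and lower in G4. Counting only cells with 2 or more UMIs of H19 gave 15.8% with Mest. Thinning to 4000 UMIs, planned for the muscle genes, gave 13.2% and 68.1% in G4 mesenchyme and 10.0% and 80.2% in G4 muscle for cells with and without H19, 9.81% of G4 muscle cells with Tnnc1, 15.2% and 21.5% of C57BL/6 and G4 cells with Mylpf, and 17.2% and 20.1% with Myog.

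Of 105 named values past 2-fold, 101 kept their side with over 3000 genes, 103 with all deposited cells, 105 with the second class annotation, 95 under median scaling and 100 with the mean of per-cell CPM. In mesenchyme 36 of 40 did so within distal and 28 of 40 within proximal cells.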

Other observations

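A few genes outside the groups above also differed between the wild types in mesenchyme, at less than 2-fold. Hmga2, a chromatin protein of growing embryonic tissue, stood at 829.6 CPM in C57BL/6, 604 in Dup, 502 in G4 and 494 in Inv1. Glo1, the enzyme that detoxifies methylglyoxal and a gene known to vary in copy number among inbred mouse strains, stood at 155 CPM in C57BL/6, 158 in Dup, 229 in G4 and 217 in Inv1, so the libraries of each background lay together. Malat1, a nuclear long non-coding RNA, stood at 15937, 12748, 12924 and 14074 CPM in the same order, with no split by background. Pluripotency and germ line genes did not reach 10 CPM in mesenchyme of the pair.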
